A study of Mus musculus with 24 samples.

Results

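The 9 genes Nr5a1, Nr0b1, Wt1, Lhx9, Emx2, Tcf21, Osr1, Six4 and Lhx2 encode transcription factors of the early gonad and its surroundings, and they were followed through supporting cells that were sorted from fetal mouse gonads. They were chosen by symbol, with earlier results of these data known, and all 9 were found among the 32040 genes listed. RNA was measured in 24 libraries, with 3 in each of 8 groups of sex and embryonic day, from E11.5 through E12.5 and E13.5 to E15.5. The XX groups held cells sorted as pre-granulosa cells, the precursors of the follicle cells of the ovary, from the transgenic line Tg(Enh8-mCherry). The XY groups held cells sorted as Sertoli cells, the supporting cells of the testis, from the line SOX9-IRES-GFP, whose reporter is tied to Sox9. The labels name no treatment. Sex, mouse line and fluorophore change together, so their parts in an XX minus XY difference cannot be told apart. Nothing in the labels says that replicates came from separate animals, so p-values measure the spread between these libraries, which may be technical.

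Before the gonad takes a male or female course, its somatic precursors arise from the coelomic epithelium and share a set of regulators. The nuclear receptor encoded by Nr5a1, the zinc finger protein encoded by Wt1 and the homeodomain proteins encoded by Lhx9 and Emx2 are each known to be needed for a gonad to form in mice. Nr0b1 encodes a repressor that acts on NR5A1, and Six4 encodes a factor known to act upstream of Nr5a1. Tcf21 and Osr1 are better known from mesenchyme, mesonephros and kidney, and Lhx2 is a LIM homeodomain relative of Lhx9.

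The labelled cell types were checked on summed markers, in CPM (counts scaled to a common library size, with the trimmed mean of M values). The sum of 8 Sertoli markers was between 1498 and 9309 CPM in XY libraries and between 59.5 and 341 in XX libraries. These markers include Sox9, to which the XY sorting reporter is tied, so this sum is not independent of the sort. The sum of 8 pre-granulosa markers was between 328 and 1439 CPM in XX libraries and between 79.9 and 294 in XY libraries. By the edgeR test (adjusted p under 0.05), 7 of the 8 were higher in XX at E11.5 (21.4% of all genes) and 1 was lower (20.6%). At E12.5, 7 were higher (30.5%) and 1 was not called, and at E13.5 and E15.5 all 8 were higher (32.8% and 34.9%). Total counts per library ran from 11275251 to 37256881, highest in XY E11.5.

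Several E11.5 libraries stood apart. XY E11.5 replicate 3 had the lowest Sertoli sum of its group (1498 CPM, against 2174 and 2599). It also had the highest sums for interstitial cells (593 CPM, against 505 and 458) and for surface epithelium (84.6 CPM, against 28.2 and 36.9). In XX E11.5 the sum of erythroid markers was 10387, 3228 and 25875 CPM and the sum of immune markers 166, 96.9 and 281 CPM. No XY library of any stage exceeded 133 CPM for erythroid and 1.54 CPM for immune markers. Later XX libraries also lay above these XY values, with immune sums between 25.2 and 42.9 CPM and erythroid sums between 195 and 1213 CPM. All 6 immune markers were higher in XX at every stage by the edgeR test (adjusted p under 0.05). The part of blood and immune cells in the XX minus XY differences was not tested. The pre-granulosa sum in XX E11.5 was 412, 1008 and 328 CPM. XX E13.5 replicate 1 was used at E13.5, the stage of its title, though another label gives E12.5. Where leaving out an XX E11.5 library, XY E11.5 replicate 3 or XX E13.5 replicate 1 changed a call for one of the 9 genes, the value without it is given. Without XX E13.5 replicate 1 the log2 differences, XX minus XY, at E13.5 were -1.67 for Nr5a1, 0.55 for Nr0b1, -0.26 for Wt1, 7.02 for Lhx9, 2.87 for Emx2, 3.92 for Tcf21, 4.66 for Osr1 and -0.03 for Six4, and every one stayed on its side of the edgeR threshold. The XX steps to E13.5 were then -0.90 for Nr5a1, -0.62 for Nr0b1 and -1.30 for Emx2, all still called. The call of the Tcf21 step was lost (-1.06, edgeR adjusted p = 0.103).

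Start-site windows from RefSeq (GRCm38.p6, 250 bases before to 50 after each annotated start) matched 6 of the 9 genes, which were Lhx9, Emx2, Nr0b1, Tcf21, Six4 and Lhx2; the others are Nr5a1, Wt1 and Osr1. Both strands were searched for the NR5A1 site AAGGTCA, the GATA motif AGATAA, the E-box CANNTG bound by factors such as TCF21, the homeodomain core TAATTA, the WT1 motif GCGGGGGCG and the TATA box TATAAA. The share of all 32851 windows that held each was 4.72%, 11.2%, 72.3%, 5.29%, 2.91% and 13.6%, in that order. No window of these genes held AAGGTCA. The Emx2 window held TAATTA 36 bases after the start, and 1 of the Lhx2 windows held GCGGGGGCG 68 bases before it. No match overlapped another. The upstream bases outside GENCODE exons are shown 5′ to 3′, 237 bases for Lhx9 and 219 for Tcf21, which had the largest XX minus XY differences at E12.5, and 239 for Nr0b1, whose levels were close in both. The Lhx9 window lies inside the span of longer Lhx9 transcripts. Capitals mark CATGTG (an E-box) in Lhx9 and TATAAA in Nr0b1. The Tcf21 match, AGATAA, lies 31 bases before the RefSeq start, in the stretch left out as exon. A match describes the letters only.
Lhx9, chr1:138842458-138842694, minus strand: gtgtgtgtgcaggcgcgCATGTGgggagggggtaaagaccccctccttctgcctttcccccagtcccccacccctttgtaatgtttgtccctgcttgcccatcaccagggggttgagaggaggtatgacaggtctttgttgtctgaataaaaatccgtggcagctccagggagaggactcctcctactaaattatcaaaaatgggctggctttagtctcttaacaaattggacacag
Tcf21, chr10:22820175-22820393, minus strand: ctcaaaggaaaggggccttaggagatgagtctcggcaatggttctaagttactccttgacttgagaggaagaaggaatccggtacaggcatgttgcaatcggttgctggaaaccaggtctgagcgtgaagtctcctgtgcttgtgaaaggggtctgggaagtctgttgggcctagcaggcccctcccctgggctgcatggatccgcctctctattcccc
Nr0b1, chrX:86191525-86191763, plus strand: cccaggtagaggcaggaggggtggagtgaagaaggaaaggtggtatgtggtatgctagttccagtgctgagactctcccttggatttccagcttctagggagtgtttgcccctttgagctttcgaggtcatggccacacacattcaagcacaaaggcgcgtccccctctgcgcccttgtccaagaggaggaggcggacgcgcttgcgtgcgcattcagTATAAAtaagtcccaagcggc

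Levels were compared between genes in TPM, an abundance scaled to transcript length and library size. Wt1, Nr5a1 and Nr0b1 were high in all 24 libraries, at 19.5 TPM or more in each. The other 6 genes each fell to a group mean of 4.28 TPM or less in at least 1 group. At E11.5 the XX and XY means were 174 and 55.3 TPM for Emx2 and 106 and 40.0 for Lhx9. They were 11.8 and 18.5 TPM for Tcf21 and 4.78 and 10.6 for Osr1, with Six4 and Lhx2 lower. Wt1 was the highest of the 9 in every group, at a mean TPM level between 257 ± 34.0 (SD, n = 3) in XX E15.5 and 546 ± 104 in XY E11.5. In XY cells Nr5a1 came next in every group (309.8 ± 80.1, 324 ± 23.3, 204 ± 12.3 and 179 ± 5.25 TPM in order of stage), followed by Nr0b1. In XX cells Emx2 or Lhx9 came next: Emx2 stood at 174 ± 14.8, 179.5 ± 12.3, 79.1 ± 8.71 and 95.0 ± 9.82 TPM, and Lhx9 at 106 ± 17.5, 158 ± 6.63, 126 ± 8.73 and 80.8 ± 8.28 TPM. Some neighbours in this order had overlapping libraries: Nr5a1, Lhx9 and Nr0b1 in sequence in XX E11.5, Emx2 and Nr5a1 in XX E13.5, Nr5a1 and Nr0b1 in XX E15.5, Emx2 and Lhx9 in XY E11.5, and Tcf21 and Emx2 in XY E15.5. At the low end, Six4 did not exceed a group mean of 1.90 TPM and Lhx2 did not exceed 0.540 TPM.

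**Figure D1:**
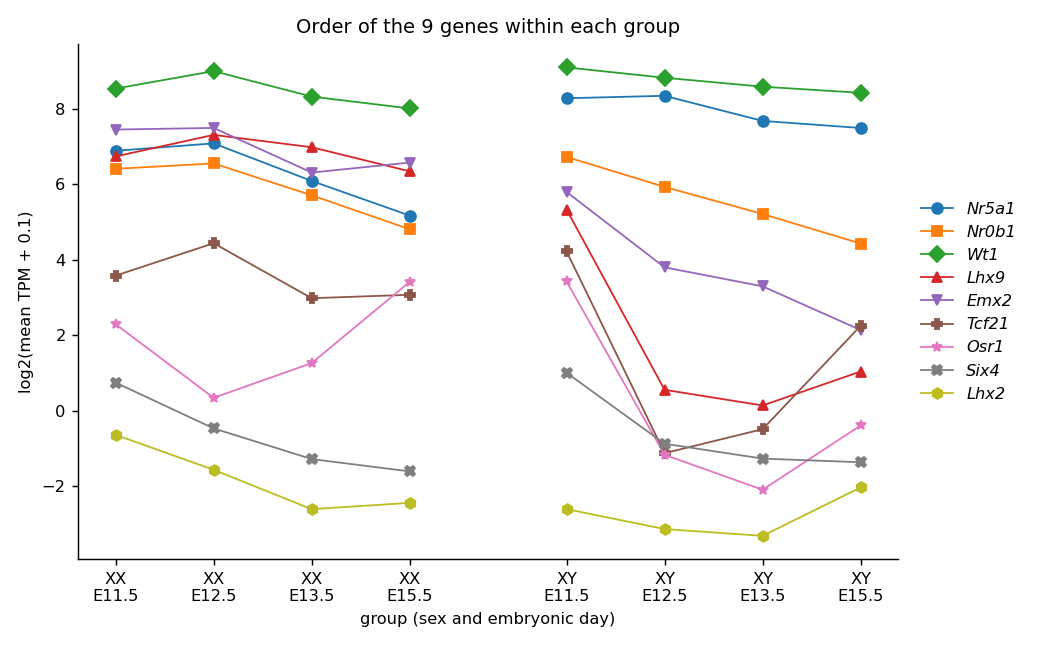
Mean level of each gene in each group as log2(mean TPM + 0.1), with XX groups on the left, XY groups on the right, 1 line per gene and means of 3 libraries. Wt1 lies on top in all 8 groups, while Lhx9 drops from 40.0 TPM at E11.5 to 1.36 TPM at E12.5 in XY and stays between 80.8 and 158 TPM in XX.

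Across the series, XX and XY cells differed in different directions for different genes. Nr5a1 was higher in XY at all 4 stages, Lhx9 and Emx2 were higher in XX at all 4, and Wt1 was lower in XX at E11.5 and E15.5 by less than the others. Differences between groups were tested on the counts of 16190 genes with the edgeR quasi-likelihood test, and a call means an adjusted p (Benjamini-Hochberg, over all genes tested) under 0.05. Lhx2 was too low to enter the test, so 8 of the 9 genes were tested. At E11.5, 4 of the 8 were called, where 42.0% of all genes were; 2 were higher in XX (21.4% of all genes) and 2 lower (20.6%). At E12.5, 6 of 8 were called, against 62.1% of all genes; 5 were higher (30.5%) and 1 lower (31.5%). At E13.5 again 6 of 8 were called, against 66.1%; 5 were higher (32.8%) and 1 lower (33.3%). At E15.5, 6 of 8 were called, against 69.4%; 4 were higher (34.9%) and 2 lower (34.4%). The median log2 difference over the 8 genes was -0.36, 1.06, 1.76 and 0.68 at the 4 stages, and over all genes tested 0.02, -0.01, 0.01 and 0.05. Libraries of XX and XY did not overlap for 3, 6, 7 and 6 of the 8 genes in order of stage, against 39.9%, 68.8%, 76.8% and 77.2% of all genes. The shares called in either direction and the shares without overlap are near the background. The split by direction is not near it at E12.5 and E13.5. There 5 of 8 genes were higher and 1 lower, beside nearly equal shares of all genes in each direction. This split is given without a test, for genes chosen with earlier results of these data known.

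**Figure D2:**
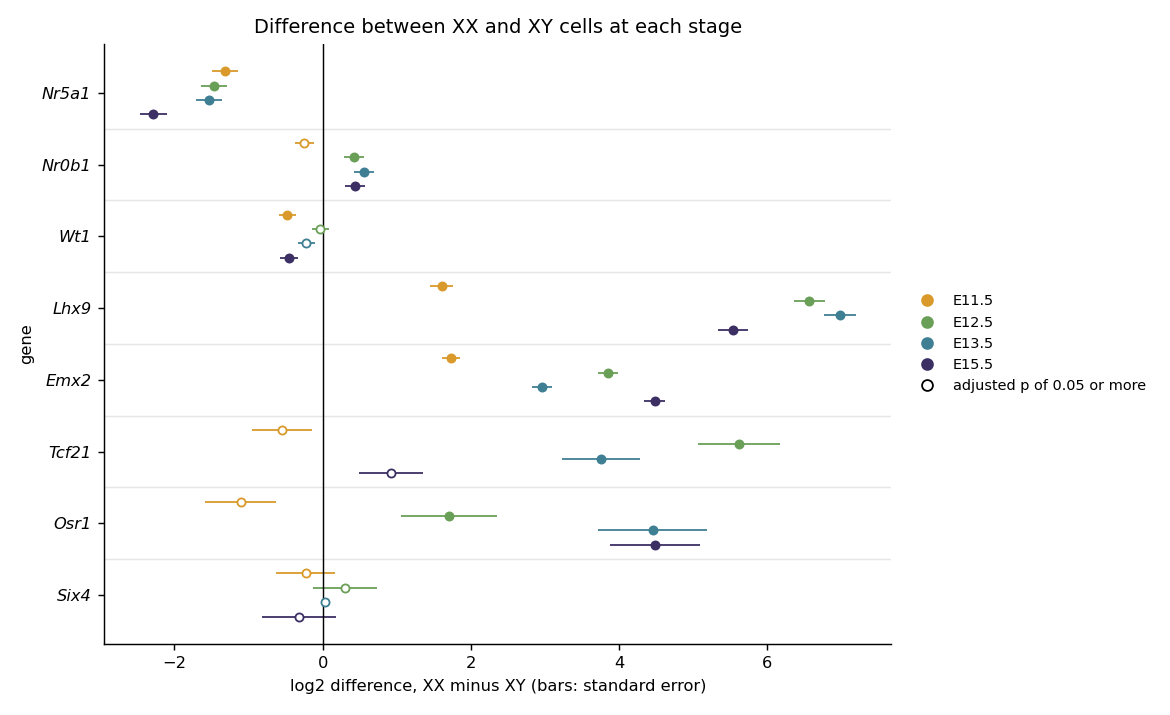
Log2 difference between XX and XY cells for the 8 genes tested, at 4 stages, from the edgeR test on 3 libraries a group; bars are standard errors (not drawn for Six4 at E13.5, where none was computed) and filled points have an adjusted p under 0.05. Nr5a1 lies to the left of 0 at all stages, down to -2.29, and Lhx9 to the right, up to 6.98.

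Nr5a1 (2:38692656-38714542, minus strand, GRCm38) encodes the nuclear receptor SF1, which switches on steroidogenic genes and, with SRY, Sox9. In XX cells its level was 228, 222 and 208 CPM at E11.5, then 238, 264 and 212 at E12.5, followed by 164, 124 and 132 at E13.5, and finally 73.7, 90.6 and 54.2 at E15.5. The XY libraries stood at 632, 639 and 372 CPM at E11.5, then 696, 652 and 620.3 at E12.5, followed by 414, 382 and 421 at E13.5, and finally 357, 338 and 369 at E15.5. Every XY library lay above every XX library, whatever the stage. XY E11.5 replicate 3, the library with the low Sertoli sum, was the lowest of its group. The XY mean was 2.50-fold above the XX mean at E11.5 and 4.87-fold above it at E15.5. The log2 differences, XX minus XY, were -1.32 (SE 0.17), -1.46 (SE 0.17), -1.54 (SE 0.17) and -2.29 (SE 0.18), with edgeR adjusted p of 3.47e-06, 2.88e-07, 1.27e-07 and 3.87e-10. Without XY E11.5 replicate 3 the difference at E11.5 was -1.52 (edgeR adjusted p = 7.2e-08). In bulk libraries, fewer cells with a transcript and less RNA per cell cannot be told apart.

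The last fall of Nr5a1 was larger in XX than in XY. Between E12.5 and E13.5 it fell by 0.77 on the log2 scale in XX and by 0.69 in XY (edgeR adjusted p = 0.0018 and 0.00753). Between E13.5 and E15.5 it fell by 0.94 in XX (edgeR adjusted p = 0.000534), while the XY value was -0.20 (0.465). When only the libraries compared were fitted, the XY step was called at -0.19 (0.0152). The test of that last difference itself, XX step minus XY step, gave -0.75 (SE 0.24, edgeR adjusted p = 0.0273). It was lost when any of 4 libraries was left out: XX E13.5 replicate 1 (-0.62, adjusted p = 0.0869), XX E15.5 replicate 3 (-0.57, 0.0853), XY E13.5 replicate 2 (-0.71, 0.0623) or XY E15.5 replicate 3 (-0.72, 0.0567), all by edgeR, and in limma over all genes (-0.75, limma adjusted p = 0.064). Over the 8 groups, the order of mean CPM was XY E12.5 (656 ± 38.1), XY E11.5 (548 ± 152), XY E13.5 (406 ± 20.8), XY E15.5 (355 ± 15.6), XX E12.5 (238 ± 26.0), XX E11.5 (219 ± 10.7), XX E13.5 (139.9 ± 21.5) and XX E15.5 (72.8 ± 18.2). Libraries overlapped between XY E12.5 and XY E11.5, between XY E11.5 and XY E13.5, and between XX E12.5 and XX E11.5.

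Nr0b1 (X:86191764-86195947, plus strand) encodes DAX1, an NR5A1 partner without a usual DNA-binding domain. Its level in XX cells was 106, 93.8 and 84.8 CPM at E11.5, then 94.6, 97.6 and 106 at E12.5, followed by 65.3, 69.3 and 60.2 at E13.5, and finally 33.5, 35.3 and 34.4 at E15.5. XY levels were 149, 96.0 and 92.7 CPM at E11.5, then 68.0, 78.1 and 76.4 at E12.5, followed by 46.1, 42.2 and 44.2 at E13.5, and finally 26.1, 26.6 and 23.7 at E15.5. The sexes overlapped at E11.5, where XY replicate 1 was high, and from E12.5 on every XX library was above every XY library of its stage. The log2 difference, XX minus XY, was -0.25 (SE 0.13, edgeR adjusted p = 0.137) at E11.5, and 0.42, 0.56 and 0.43 at the later stages (0.00846, 0.00097 and 0.00774). The E11.5 difference depended on the XY libraries: it was -0.01 without XY E11.5 replicate 1 (edgeR adjusted p = 0.975), -0.36 without XY E11.5 replicate 2 (0.0452) and -0.37 when XY E11.5 replicate 3 and XX E13.5 replicate 1 were both left out (0.0423).

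Nr0b1 fell at every XY step, by 0.60, 0.75 and 0.79 on the log2 scale (edgeR adjusted p = 0.000621, 0.00052 and 0.000214). In XX the first step was flat, at 0.06 (0.742), and then Nr0b1 fell by 0.61 and 0.92 (0.00133 and 6.06e-05). The first steps differed between the sexes by 0.67 (SE 0.19, edgeR adjusted p = 0.00668). Set against Nr5a1 in TPM, the level of Nr0b1 was 0.715 ± 0.0484 (SD, n = 3) of the Nr5a1 level in XX E11.5, and 0.818 ± 0.212 of it by XX E15.5. The same ratio in XY was 0.351 ± 0.0888 at E11.5 and 0.119 ± 0.0120 at E15.5. The ratio was below every XX library in every XY library. Over the groups the order ran from XY E11.5 (113 ± 31.7 CPM) through XX E12.5, XX E11.5, XY E12.5, XX E13.5, XY E13.5 and XX E15.5 to XY E15.5 (25.5 ± 1.51). Libraries overlapped among the first 3 and between XY E12.5 and XX E13.5.

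Wt1 (2:105126529-105173616, plus strand) encodes a zinc finger factor of the gonad and kidney that supporting cells go on expressing. Its level in XX cells was 699, 567 and 561 CPM at E11.5, then 841, 792 and 732 at E12.5, followed by 605, 558 and 572 at E13.5, and finally 419, 482 and 395 at E15.5. Among XY libraries it was 1018, 859.5 and 662 CPM at E11.5, then 852, 789.8 and 772 at E12.5, followed by 682, 668 and 669 at E13.5, and finally 583, 592 and 598 at E15.5. The sexes overlapped at E11.5 and E12.5 and did not at E13.5 and E15.5, where XX was the lower. Its group means, from 432 to 847 CPM, spanned a smaller fold than those of any of the other 8 genes. The log2 differences, XX minus XY, were -0.48 (SE 0.12), -0.03 (SE 0.12), -0.22 (SE 0.12) and -0.45 (SE 0.12), with edgeR adjusted p of 0.00268, 0.848, 0.105 and 0.00186. The sign at E12.5 turned under other scalings and tools, up to 0.18 in limma on TPM. The E11.5 call was lost when only the libraries compared were fitted (-0.48, edgeR adjusted p = 0.113), and without XY E11.5 replicate 3 the value was -0.61 (0.000117). With only the libraries compared the E13.5 difference was called (-0.17, edgeR adjusted p = 0.0157).

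Wt1 rose by 0.37 on the log2 scale between E11.5 and E12.5 in XX (edgeR adjusted p = 0.0183), and then fell by 0.45 and 0.42 (0.00602 and 0.0119). No XY step passed the test (-0.07, -0.26 and -0.19, with edgeR adjusted p of 0.621, 0.146 and 0.284), though the test for any change over the 4 XY stages did (0.00183). The first XY step was called without XY E11.5 replicate 3, at -0.30 (edgeR adjusted p = 0.0248), and the later XY steps with only the libraries compared (-0.24 and -0.19, 0.0184 and 0.00964). The XX rise was lost without XX E11.5 replicate 3 (0.32, 0.076), XX E12.5 replicate 1 (0.33, 0.0646) or XX E12.5 replicate 2 (0.34, 0.0699), and with only the libraries compared (0.34, 0.146). The last XX fall was lost without XX E13.5 replicate 1 (-0.39, 0.0515) or XX E15.5 replicate 3 (-0.36, 0.0695), and in all 3 limma fits on TPM (-0.32, limma adjusted p = 0.0778 to 0.119). In the order of mean CPM, XY E11.5 (847 ± 178), XY E12.5 (804 ± 42.0) and XX E12.5 (789 ± 54.7) led with overlapping libraries. XY E13.5 (673 ± 7.79), XX E11.5 (609 ± 77.9), XY E15.5 (591 ± 7.63) and XX E13.5 (578 ± 24.4) followed, each overlapping the next, and XX E15.5 (432 ± 44.7) was the lowest.

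**Figure D3:**
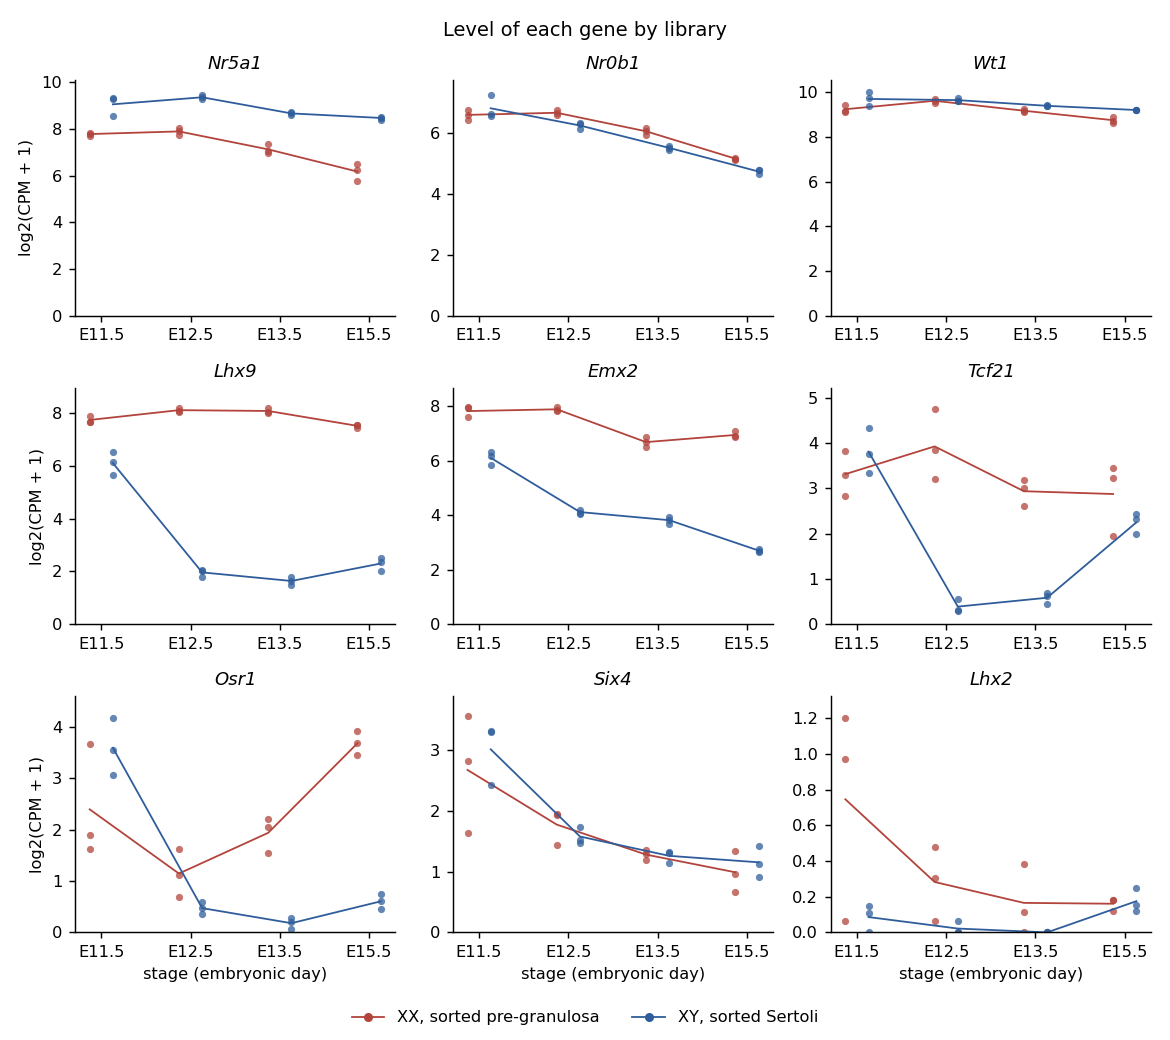
Level of the 9 genes in each library as log2(CPM + 1), by embryonic day, with 1 point per library and lines through the group means of 3 libraries; axis ranges differ between genes. XX and XY separate for Lhx9 and Emx2 at all 4 stages, while Six4 overlaps at every stage and Lhx2 has 20 counts or fewer in every library.

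Lhx9 (1:138825186-138848577, minus strand) encodes a LIM homeodomain protein of the coelomic epithelium and early gonad. In XX cells its level was 237, 204 and 203 CPM at E11.5, then 275, 293 and 265 at E12.5, followed by 257, 267 and 291 at E13.5, and finally 186, 189 and 175 at E15.5. XY cells had 70.2, 48.9 and 92.1 CPM at E11.5, and from E12.5 on between 1.82 and 4.72 CPM in all 9 libraries. No XY library reached any XX library. The XX mean was 3.05-fold above the XY mean at E11.5, 95.4-fold at E12.5, 128-fold at E13.5 and 46.1-fold at E15.5. The log2 differences, XX minus XY, were 1.61 (SE 0.16), 6.57 (SE 0.21), 6.98 (SE 0.21) and 5.54 (SE 0.20), with edgeR adjusted p of 7.03e-08, 4.05e-16, 2.02e-16 and 2.16e-15. XY E11.5 replicate 3, with the highest interstitial and surface epithelium sums of its group, was also its highest library for Lhx9. Without it the E11.5 difference was 1.86 (edgeR adjusted p = 8.34e-09).

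In XY cells Lhx9 fell by 4.59 on the log2 scale between E11.5 and E12.5 (SE 0.20, edgeR adjusted p = 1.26e-13), and in XX the same step was 0.37 (0.0683). That XX step was called without XY E11.5 replicate 2 (0.37, edgeR adjusted p = 0.0216) or XY E11.5 replicate 3 (0.34, 0.0467), and in all 3 limma fits on TPM (0.58, limma adjusted p = 0.00689 to 0.0156). The difference between the XX and XY steps was 4.96 (SE 0.25, edgeR adjusted p = 5e-12). Without XY E11.5 replicate 3 it was 4.77 (1.66e-12). At the low level reached in XY, Lhx9 rose by 0.87 between E13.5 and E15.5 (edgeR adjusted p = 0.00609), a rise lost without XY E15.5 replicate 2 (0.70, 0.0535). In XX it fell by 0.57 at that step (edgeR adjusted p = 0.0101). Over the groups, XX E12.5 (278 ± 14.1 CPM) and XX E13.5 (272 ± 17.7) overlapped, then came XX E11.5 (215 ± 19.4), XX E15.5 (183 ± 7.38) and XY E11.5 (70.4 ± 21.6). XY E15.5 (3.97 ± 0.827) and XY E12.5 (2.91 ± 0.382) overlapped, and XY E13.5 (2.12 ± 0.323) was the lowest. In the same XY step the interstitial sum went from between 458 and 593 to between 117 and 139.6 CPM, the surface epithelium sum from between 28.2 and 84.6 to between 16.2 and 17.4, and the mesonephric duct sum from between 45.4 and 54.8 to between 5.18 and 9.32. At each stage from E12.5 on, these sums were higher in every XX library than in every XY library. In XX E12.5 they were between 171 and 250 CPM for interstitial cells, 60.7 and 157 for surface epithelium, and 42.4 and 71.9 for mesonephric duct. At E11.5 the interstitial sum was lower in XX (between 229 and 450 CPM) and the others overlapped. The part of these cell types in the XY fall of Lhx9, Emx2, Tcf21 and Osr1, or in their XX minus XY differences, was not tested.

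Emx2 (19:59458372-59465357, plus strand) encodes a homeodomain protein needed for the urogenital system. In XX cells its level was 192, 249 and 243 CPM at E11.5, then 226, 254 and 232 at E12.5, followed by 115.1, 102 and 91.2 at E13.5, and finally 119, 134 and 116 at E15.5. For XY the level was 71.7, 78.2 and 56.4 CPM at E11.5, then 16.1, 15.7 and 17.4 at E12.5, followed by 11.8, 13.3 and 14.4 at E13.5, and finally 5.29, 5.44 and 5.82 at E15.5. Every XX library was above every XY library. The log2 differences, XX minus XY, were 1.73 (SE 0.12), 3.86 (SE 0.13), 2.96 (SE 0.13) and 4.48 (SE 0.14), with edgeR adjusted p of 4.75e-10, 1.55e-15, 4.88e-14 and 3.5e-16. As a ratio of means, XX was 3.31-fold, 14.5-fold, 7.80-fold and 22.3-fold above XY. Without XY E11.5 replicate 3 the first difference was 1.62 (edgeR adjusted p = 3.47e-09).

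The narrower gap at E13.5 went with a fall in XX. Emx2 fell by 1.21 on the log2 scale between E12.5 and E13.5 in XX (edgeR adjusted p = 9.95e-07), and the XY value was -0.31 (0.102). The 3 limma fits on TPM called the XY step too, at -0.47 to -0.50 (limma adjusted p = 0.00917 to 0.0167). In XY it fell by 2.07 between E11.5 and E12.5 and by 1.26 between E13.5 and E15.5 (edgeR adjusted p = 3.02e-11 and 1.6e-06), while the XX values at those steps were 0.06 (0.74) and 0.26 (0.111). The steps differed between the sexes by 2.13, -0.90 and 1.52 in turn (edgeR adjusted p = 5.86e-09, 0.000772 and 6.09e-06). In edgeR over all libraries Emx2 was called at all 3 of these differences. Tcf21 was too in DESeq2, where its difference to E13.5 was -1.86 (DESeq2 adjusted p = 0.0372), and in limma on log2(TPM + 0.1) (-1.98, 0.0244). In the order of groups only XX E12.5 (237 ± 15.1 CPM) and XX E11.5 (228 ± 31.0) overlapped; XX E15.5 (123 ± 9.83), XX E13.5 (103 ± 11.97), XY E11.5 (68.8 ± 11.2), XY E12.5 (16.4 ± 0.883), XY E13.5 (13.2 ± 1.33) and XY E15.5 (5.52 ± 0.272) were each apart.

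Tcf21 (10:22817281-22820174, minus strand) encodes a basic helix-loop-helix factor of mesenchymal progenitors, known as a repressor of Nr5a1 in the gonad. In XX cells its level was 6.15, 8.76 and 13.1 CPM at E11.5, then 13.3, 25.8 and 8.17 at E12.5, followed by 5.11, 7.02 and 8.16 at E13.5, and finally 2.87, 8.33 and 9.93 at E15.5. XY libraries gave 9.10, 12.55 and 19.1 CPM at E11.5, then 0.233, 0.474 and 0.228 at E12.5, followed by 0.608, 0.359 and 0.536 at E13.5, and finally 2.95, 4.43 and 3.99 at E15.5. The sexes overlapped at E11.5 and E15.5 and were apart at E12.5 and E13.5, where the XY libraries held 5 to 15 counts each. XX replicates were spread widely, with XX E12.5 replicate 2 the highest. The log2 differences, XX minus XY, were -0.55 (SE 0.40), 5.62 (SE 0.56), 3.76 (SE 0.52) and 0.92 (SE 0.43), with edgeR adjusted p of 0.284, 2.54e-08, 2.53e-06 and 0.0609. The first was -0.20 without XY E11.5 replicate 3 and -0.88 without XX E11.5 replicate 3 (edgeR adjusted p = 0.742 and 0.118). The E15.5 difference passed the test in 8 of the fits that left out 1 library, such as 1.28 without XX E15.5 replicate 1 (edgeR adjusted p = 0.00949) and 1.003 without XY E11.5 replicate 3 (0.0369), with only the libraries compared (0.96, 0.0417) and in DESeq2 (0.94, 0.0476).

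In XY cells Tcf21 dipped at E12.5 and E13.5. The gene fell by 5.41 on the log2 scale at the first XY step (SE 0.56, edgeR adjusted p = 7.27e-08) and rose by 2.92 at the last (SE 0.53, 0.000446). XX values at those steps were 0.76 (0.152) and 0.08 (0.916), and the steps differed between the sexes by 6.17 and -2.83 (edgeR adjusted p = 6.1e-07 and 0.00431). In XX Tcf21 fell by 1.22 between E12.5 and E13.5 (edgeR adjusted p = 0.0277), which was lost without XX E12.5 replicate 2 (-0.64, 0.273), XX E13.5 replicate 1 (-1.06, 0.103) or XX E13.5 replicate 2 (-1.22, 0.0777), and with only the libraries compared (-1.19, 0.0623). In the order of groups, XX E12.5 (15.8 ± 9.08 CPM), XY E11.5 (13.6 ± 5.10), XX E11.5 (9.33 ± 3.51), XX E15.5 (7.04 ± 3.71) and XX E13.5 (6.76 ± 1.54) overlapped in sequence. XY E15.5 (3.79 ± 0.761) stood above XY E13.5 (0.501 ± 0.128) and XY E12.5 (0.312 ± 0.141), which overlapped.

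Osr1 (12:9570116-9581500, plus strand) encodes a zinc finger factor of the intermediate mesoderm. In XX cells its level was 2.73, 2.06 and 11.7 CPM at E11.5, then 1.17, 2.09 and 0.615 at E12.5, followed by 1.93, 3.15 and 3.62 at E13.5, and finally 9.90, 14.1 and 11.8 at E15.5. In XY cells it was 7.34, 10.7 and 16.997 CPM at E11.5, then 0.280, 0.388 and 0.503 at E12.5, followed by 0.221, 0.0398 and 0.143 at E13.5, and finally 0.521, 0.674 and 0.380 at E15.5. The XY libraries after E11.5 held 1 to 12 counts of Osr1 each. XX E11.5 replicate 3, the library with the highest erythroid, immune and interstitial sums of its group, was far above its 2 replicates. From E12.5 on every XX library exceeded every XY library of its stage. The log2 difference, XX minus XY, was -1.10 (SE 0.48, edgeR adjusted p = 0.0706) at E11.5 and 1.70, 4.45 and 4.49 at the later stages (0.028, 2.28e-05 and 1.33e-06).

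The E11.5 value of Osr1 depended on the libraries and on the pairing. It was -1.18 with the replicate number as a block (edgeR adjusted p = 0.039), -2.30 without XX E11.5 replicate 3 (0.000156), -1.36 without XY E11.5 replicate 1 (0.0461) and, leaving out XY E11.5 replicate 3 instead, -0.72 (0.276). The limma fits on TPM called it, at -1.23 to -1.48 (limma adjusted p = 0.0135 to 0.0316). At E12.5 the call was lost without XX E12.5 replicate 2 (1.25, edgeR adjusted p = 0.136), XY E12.5 replicate 1 (1.57, 0.076) or XY E12.5 replicate 2 (1.75, 0.0608), and in limma on log2(TPM + 1) (0.63, limma adjusted p = 0.162). Osr1 fell by 4.88 on the log2 scale at the first XY step (SE 0.61, edgeR adjusted p = 1.19e-06). It rose by 2.04 between E13.5 and E15.5 in XX (SE 0.51, edgeR adjusted p = 0.00587), and the XY step, at a level of 12 counts or fewer, did not pass (0.116) but did without XX E11.5 replicate 3 (0.0307), in DESeq2 (0.0333) and in limma on log2(TPM + 0.1) (0.0396). The XX step to E13.5, at 1.18 (edgeR adjusted p = 0.106), passed without XX E11.5 replicate 3 (1.15, 0.0266) or XX E12.5 replicate 2 (1.72, 0.0483) and with only the libraries compared (1.20, 0.0345). The surface epithelium sum in XX was between 60.7 and 157 CPM up to E12.5, between 355 and 383 at E13.5 and between 544 and 569 at E15.5; its part in the XX rise was not tested. The first XX step of Osr1, a fall of 2.07 (edgeR adjusted p = 0.00531), was lost without XX E11.5 replicate 3 (-0.89, 0.131) and with only the libraries compared (-2.12, 0.12). In the order of groups, XX E15.5 (11.9 ± 2.12 CPM) and XY E11.5 (11.7 ± 4.91) led, XX E11.5 (5.51 ± 5.40), XX E13.5 (2.90 ± 0.877), XX E12.5 (1.29 ± 0.746), XY E15.5 (0.525 ± 0.147) and XY E12.5 (0.390 ± 0.111) followed, each overlapping the next. XY E13.5 (0.135 ± 0.0909) was the lowest and apart.

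Six4 (12:73099609-73113456, minus strand) encodes a homeodomain protein of the sine oculis type. Its level in XX cells was 10.7, 2.11 and 6.09 CPM at E11.5, then 1.71, 2.86 and 2.81 at E12.5, followed by 1.56, 1.45 and 1.28 at E13.5, and finally 0.955, 1.53 and 0.579 at E15.5. In XY cells it was 4.37, 8.91 and 8.85 CPM at E11.5, then 1.87, 2.33 and 1.78 at E12.5, followed by 1.22, 1.47 and 1.501 at E13.5, and finally 1.17, 1.68 and 0.886 at E15.5. The sexes overlapped at every stage, and E11.5 was the highest stage in both. No XX minus XY difference passed the test (-0.23, 0.30, 0.03 and -0.32 on the log2 scale, edgeR adjusted p = 0.676, 0.564, 0.963 and 0.575), with SE of 0.40 to 0.50 at the 3 stages where it was computed, which does not show that the sexes were alike. Six4 fell by 1.36 at the first XX step and by 1.88 at the first XY step (edgeR adjusted p = 0.0164 and 0.000802). The XX fall was lost without XX E11.5 replicate 1 (-0.72, edgeR adjusted p = 0.204) or XX E12.5 replicate 1 (-1.15, 0.0777), with only the libraries compared (-1.39, 0.158) and in all 3 limma fits on TPM (-0.57 to -0.96, limma adjusted p = 0.0592 to 0.107). Neighbours in the order of the 8 groups overlapped except XY E12.5 and XX E13.5.

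Lhx2 (2:38339281-38369733, plus strand) lies 322922 bases from Nr5a1 and was near the detection limit. It had no counts in 7 of 24 libraries and at most 3 counts, taken as the floor, in 18. The XX libraries held 18, 1 and 20 counts at E11.5, then 6, 1 and 9 at E12.5, followed by 0, 2 and 4 at E13.5, and finally 1, 2 and 3 at E15.5. The XY libraries held 4, 0 and 3 counts at E11.5, then 0, 0 and 1 at E12.5, none at E13.5, and finally 2, 2 and 3 at E15.5. The highest libraries, XX E11.5 replicates 1 and 3, were the libraries with the highest erythroid and immune sums; the part of those cells was not tested. In a fit without the count filter the XX minus XY difference at E11.5 was 3.47 (SE 1.02, edgeR adjusted p = 0.012). At the later stages no library held more than 9 counts, and no difference is given.

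Called steps between stages were lower in more cases than higher. All 8 tested genes changed over the 4 stages in XX and in XY by the edgeR F test, where 74.0% and 70.3% of all genes did. The Tcf21 call in XX (edgeR adjusted p = 0.0293) was lost without XX E12.5 replicate 2 (0.362), XX E13.5 replicate 1 (0.0574) or XX E13.5 replicate 2 (0.0526), and with only the XX libraries fitted (0.097). At the first XX step 3 of 8 genes were called, against 34.0% of all genes; 1 was higher (16.7% of all genes) and 2 lower (17.3%). At the second XX step 5 were called, all lower, against 31.7% of all genes called, 17.4% lower and 14.2% higher. At the third XX step 5 were called, against 25.6%; 1 was higher (12.8%) and 4 lower (12.8%). At the first XY step 6 of 8 were called, all lower, where 51.9% of all genes were called, 24.8% lower and 27.1% higher. The second XY step had 2 calls, both lower, against 16.6% of all genes, 8.62% lower and 8.02% higher. The third XY step had 4 calls, against 21.3%; 2 were higher (1863 of all genes) and 2 lower (9.79%). The medians over the 8 genes were 0.09, -0.69 and -0.47 in XX and -1.98, -0.47 and -0.18 in XY, where those over all genes lay between -0.01 and 0.03. Libraries of adjoining stages did not overlap for 2, 6 and 6 of the 8 genes in XX (33.4%, 51.4% and 48.3% of all genes) and for 6, 7 and 7 in XY (60.4%, 42.2% and 49.6%).

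**Figure D4:**
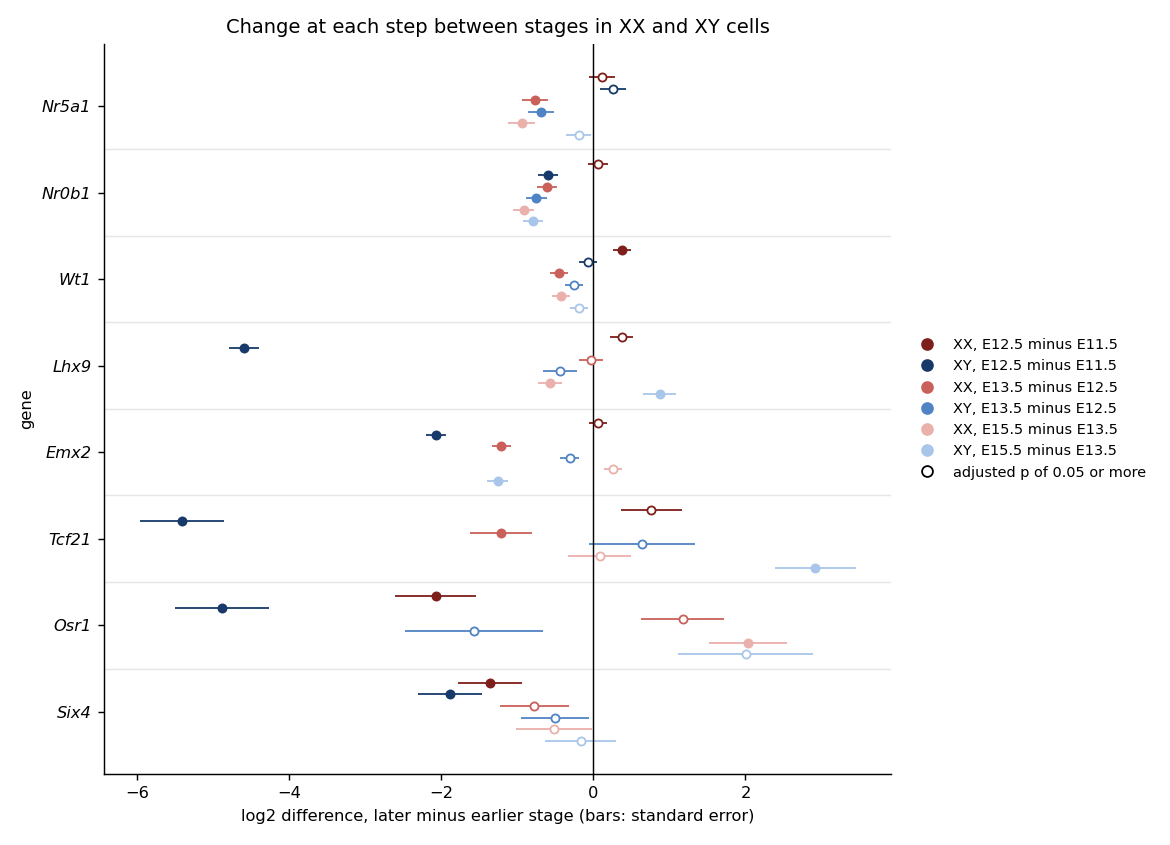
Log2 difference between adjoining stages, later minus earlier, for the 8 genes tested in XX and XY cells, from the edgeR test on 3 libraries a group; bars are standard errors and filled points have an adjusted p under 0.05. At the first XY step Lhx9, Tcf21 and Osr1 lie between -4.59 and -5.41 and Emx2 at -2.07, while their XX values lie between -2.07 and 0.76.

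The XX minus XY difference changed over the stages for 6 of the 8 genes, where 70.1% of all genes were called. The edgeR adjusted p of this sex-by-stage test was 1.29e-12 for Lhx9, 3.35e-10 for Emx2, 6.17e-07 for Tcf21, 8.6e-06 for Osr1, 0.00267 for Nr0b1 and 0.00611 for Nr5a1. Wt1 was at 0.0595 and Six4 at 0.777. The Wt1 test passed under most alternatives: in DESeq2 (adjusted p = 0.0258), in edgeR with DESeq2 size factors (0.0422), with at least 10 counts in every library (0.0188) or with the replicate block (0.0328), and in the 3 limma fits on TPM (0.00737 to 0.0134). It passed in 10 of the 24 edgeR fits that left out 1 library, among them all 6 without an E11.5 library (0.00279 to 0.0366). At the first step the XX change lay above the XY change for 6 genes (Lhx9, Emx2, Tcf21, Osr1, Nr0b1 and Wt1), where 40.1% of all genes were called, 19.6% above and 20.5% below. Steps to E13.5 differed for 1 of 8 genes, Emx2, below 0 (25.2% of all genes, 13.8% below and 11.3% above). The Osr1 difference at this step, 2.75 (edgeR adjusted p = 0.0612), passed in DESeq2 (2.79, 0.0143), with only the libraries compared (2.71, 0.0144) and without XX E11.5 replicate 2 (2.70, 0.0477), XX E11.5 replicate 3 (2.70, 0.0131) or XX E12.5 replicate 2 (3.27, 0.0336), and that of Tcf21 without XX E12.5 replicate 3 (-2.15, 0.0488). Steps to E15.5 differed for 4 of 8 (25.8% of all genes), of which Emx2 lay above 0 (12.4%) and Lhx9, Tcf21 and Nr5a1 below (2179 of the 16190 genes).

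Wt1 and Emx2 each have an antisense gene at their start, and the 2 pairs ran differently. Wt1os lies head to head with Wt1, 18 bases away and without overlap, and Emx2os overlaps Emx2 by 264 bases on the other strand. How reads were assigned to strands is not given in the sources used here, so the split between Emx2 and Emx2os is uncertain. Wt1os was at 62.2 ± 2.69, 108.2 ± 40.1, 119 ± 8.69 and 91.2 ± 8.26 CPM in XX in order of stage, and at 86.6 ± 6.26, 20.2 ± 1.26, 15.1 ± 1.93 and 11.3 ± 0.244 CPM in XY. From E12.5 on, all XX libraries of Wt1os were above all XY libraries. Its log2 difference, XX minus XY, was -0.48 at E11.5 and then 2.42, 2.98 and 3.01 (edgeR adjusted p = 0.0196, 7.75e-11, 3.55e-12 and 3.51e-12). The E11.5 call was lost without XY E11.5 replicate 1 (-0.43, 0.0687). At the first XY step Wt1os fell by 2.10 (edgeR adjusted p = 1.38e-09), at which Wt1 stood at -0.07 (0.621). As a share of the Wt1 count, Wt1os went from 10.5% ± 1.82 in XY E11.5 to 1.92% ± 0.0387 in XY E15.5, and from 10.3% ± 1.36 to 21.4% ± 3.91 in XX.

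At the first XY step Emx2os fell by 3.31 on the log2 scale (edgeR adjusted p = 6.99e-10) and Emx2 by 2.07. Emx2os was at 60.8 ± 19.8, 59.7 ± 7.02, 54.8 ± 1.71 and 33.9 ± 2.27 CPM in XX, and at 32.6 ± 11.8, 3.27 ± 0.191, 1.56 ± 0.430 and 1.11 ± 0.135 CPM in XY. The log2 differences, XX minus XY, were 0.90, 4.19, 5.16 and 4.92 (edgeR adjusted p = 0.00211, 1.07e-11, 1.23e-12 and 5.01e-12), and the first was lost with only the libraries compared (0.89, 0.104). At the XX step to E13.5, where Emx2 fell by 1.21, Emx2os stood at -0.12 (0.706). As a share of the Emx2 count, Emx2os was 53.8% ± 5.01 in XX E13.5, against 26.3% ± 5.92, 25.2% ± 2.96 and 27.5% ± 1.39 in the other XX groups. In XY the share was 46.6% ± 12.4, 20.2% ± 2.12, 12.1% ± 4.63 and 20.2% ± 2.39 in order of stage. Libraries of XY E11.5 and XX E13.5 overlapped in this share.

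**Figure D5:**
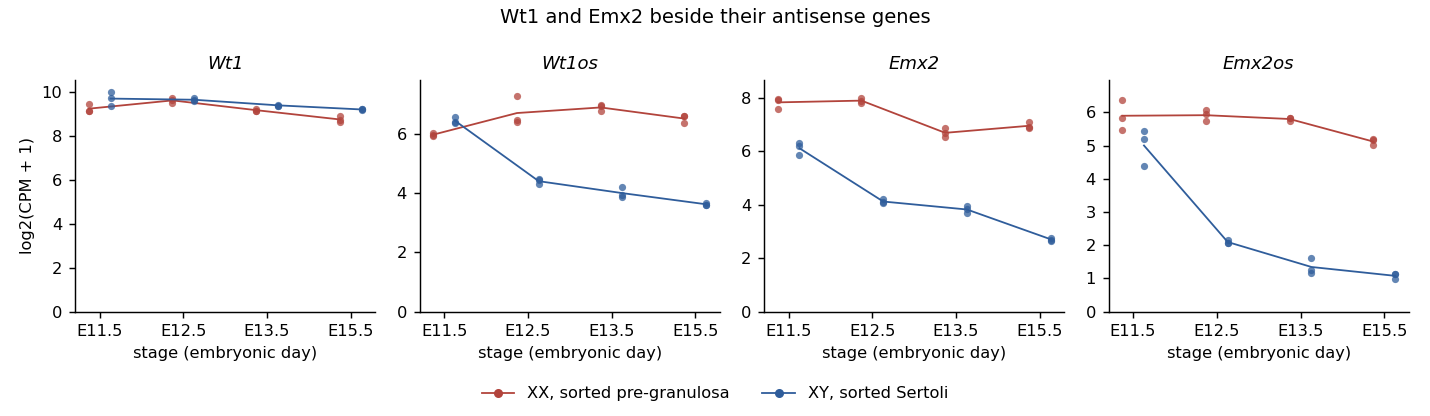
Level of Wt1, Wt1os, Emx2 and Emx2os in each library as log2(CPM + 1), by embryonic day, with 1 point per library and lines through the means of 3 libraries. Wt1os drops from 86.6 to 20.2 CPM between E11.5 and E12.5 in XY while Wt1 stays at 847 and 804 CPM; Emx2 and Emx2os both drop.

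Among other genes known from the pathway, listed with earlier results known, early gonad regulators were called in both directions. Of the 9 tested of 10 listed, 1, 2, 2 and 1 were higher in XX in order of stage (21.4%, 30.5%, 32.8% and 34.9% of all genes) and 2, 4, 5 and 6 lower (20.6%, 31.5%, 33.3% and 34.4%); the median log2 differences were -0.10, -0.41, -0.72 and -0.745. The genes named from these lists were picked after their values were seen, and all differences given for them passed the edgeR test. Gata4, a zinc finger factor of the gonadal ridge, stood at -2.54 and -2.50 at E13.5 and E15.5 (edgeR adjusted p = 4.2e-09 and 4.5e-09). Its cofactor Zfpm2 was lower in XX at all 4 stages (-0.54, -0.95, -1.23 and -0.99), though at E11.5 the call was lost with only the libraries compared (-0.55, edgeR adjusted p = 0.156). Map3k4, a kinase upstream of Sry, stood at -0.97, -1.43 and -1.98 from E12.5 on, and Cbx2, a Polycomb subunit, at -1.68 and -3.64 at E13.5 and E15.5.

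Genes known as NR5A1 targets were called in both directions, as all genes were. Of 13 tested, 3, 3, 8 and 2 were higher in XX at the 4 stages (21.4%, 30.5%, 32.8% and 34.9% of all genes) and 5, 4, 4 and 6 lower (20.6%, 31.5%, 33.3% and 34.4%); the list holds Sox9, to which the XY sorting reporter is tied. Inha, an inhibin subunit, was higher in XX at E11.5 (1.22) and lower after it (-1.77, -1.86 and -2.74). Scarb1, a lipoprotein receptor of steroidogenic cells, was lower in XX from E12.5 on (-1.16, -1.62 and -3.18). Inha and Scarb1 were thus both lower at E13.5, where 8 of the 13 targets were higher in XX. The median log2 differences over the 13 were -0.15, 0.07, 1 and -2.86. Of 5 steroidogenic markers, all on this list, 1, 2, 4 and 1 were higher in XX and 2, 0, 0 and 2 lower. Of 6 known WT1 targets, 4, 3, 3 and 3 were higher in XX, and 1 was lower at E11.5, 1 at E12.5 and 2 at E15.5, against the same shares of all genes. Podxl, a sialomucin of podocytes, was higher in XX at all 4 stages (1.40, 4.01, 3.11 and 3.21), where the Wt1 differences lay between -0.48 and -0.03.

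Of the LIM family and its cofactors 13 of 19 were tested, and 8, 6, 6 and 6 were higher in XX (21.4%, 30.5%, 32.8% and 34.9% of all genes) and 3, 3, 4 and 1 lower (20.6%, 31.5%, 33.3% and 34.4%). The same shares of all genes stand beside the counts that follow. The LIM-only gene Lmo4 was lower in XX at all stages (-2.00, -1.80, -1.54 and -1.34). Ldb2 and Ssbp2, whose products bind LIM homeodomain proteins in complexes, were higher in XX from E12.5 on (2.06, 2.67 and 1.81 for Ldb2, and 1.35, 2.38 and 2.39 for Ssbp2). Of the relatives of Six4 with the EYA and DACH genes, 6 of 11 were tested, with 1, 1, 2 and 1 higher in XX and 1, 2, 3 and 3 lower. Eya1, a coactivator of such homeodomain proteins, was lower in XX from E12.5 on (-3.85, -2.83 and -3.46). Of 7 close relatives tested, 2, 1, 2 and 1 were higher in XX and 2, 2, 1 and 3 lower. Osr2, the relative of Osr1, was lower in XX at E11.5 (-1.41) and higher at E13.5 and E15.5 (2.40 and 1.02).

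The genes with the most similar profile were ranked by Pearson r of log2(CPM + 1) over the 24 libraries, among 10865 genes. These r describe libraries that share sex, stage and line, and carry no test. Lhx9 was closest to Pcdh18 (r = 0.990), Rasa4 and Lef1 (both 0.987), and Emx2 to Parvb (0.988), Podxl (0.982) and Apoe (0.980). Nr5a1 was closest to Pml (0.976), St6gal1 and Uck2 (both 0.975), Wt1 to Rassf10 (0.917), Pgd (0.911) and Yeats2 (0.909), and Nr0b1 to Cpa1 (0.943), Plxnd1 and Wipf1 (both 0.941). For Tcf21 they were Mtmr11 (0.931), Ednra (0.930) and Ngfr (0.925), for Osr1 Pcdh19 (0.959), Angpt2 and Lum (both 0.944), and for Six4 Mgam (0.942), Fndc3c1 (0.930) and Pgap1 (0.926). The ranks of Lhx2 rest on 82 counts in all and are left out. Within one sex (12 libraries), Lhx9 and Emx2 had r = 0.838 in XY and 0.090 in XX, and Nr5a1 and Wt1 had 0.904 and 0.902. Lhx9 and Osr1 had 0.986 in XY and -0.782 in XX. In XY both genes were far higher at E11.5 than later, and the later libraries held only 1 to 12 Osr1 counts each.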

How the data were processed

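The authors' deposited tables hold estimated counts per gene and TPM values for 24 libraries of polyadenylated RNA, made with a low-input cDNA amplification kit per the labels. The build is mm10 per the submitters' processing notes; aligner, counting program and use of strand are not given in the sources used here. Of the deposited estimated counts, 17.5% were not whole, and all were rounded. XX E13.5 replicate 1 was kept at the stage of its title, though another label field gives E12.5.

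The test used edgeR 4.0.16 (R 4.3.3) with filterByExpr (16190 genes), TMM, the robust quasi-likelihood test with 1 mean per group, 16 residual degrees of freedom, Benjamini-Hochberg adjustment over all genes and a threshold of 0.05. Standard errors are the log2 value over the root of F. The common coefficient of biological variation was 17.4%. The scripts were tested on simulated data. A count of 3 was the floor (0.0774 to 0.26 CPM); floors cover counting error only. Positions are from GENCODE M21 (GRCm38). Alternatives were DESeq2 1.42.0, limma 3.58.1 on log2(TPM + 1) and log2(TPM + 0.1), other filters and scalings, a replicate block, fewer libraries and leaving out each library.

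The labels number replicates 1 to 3 in each group. Deviations of same-numbered libraries correlated at 0.169, 0.132 and 0.351 between XX and XY E11.5, all over 0.1, which no other pair of groups compared reached. At E11.5 XX replicate 2 and XY replicate 1, with unlike numbers, correlated at 0.142. Where the pairing comes from is not given, and the blocked value is printed at E11.5 where it changes a call.

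All 9 genes were named, any gene of the lists could be, and for each member the 3 genes with the highest Pearson r among genes tested with a mean of 10 CPM or more in a group, leaving out predicted genes (Gm numbers, Rik and -ps symbols). Members and lists were chosen with earlier results of these data known. Some genes of the lists are not reported here.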

Additional observations from a re-analysis of the deposited data

Results flagged for a closer look

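The change with stage differed between XX and XY cells for 6 of the 8 genes tested, where 70.1% of all genes were called. The edgeR adjusted p was 1.29e-12 for Lhx9, 3.35e-10 for Emx2, 6.17e-07 for Tcf21, 8.6e-06 for Osr1, 0.00267 for Nr0b1 and 0.00611 for Nr5a1. Step differences between the sexes were called for 40.1%, 25.2% and 25.8% of all genes, in order of stage. Between E11.5 and E12.5 the log2 step in XX minus that in XY was 6.17 for Tcf21, 4.96 for Lhx9, 2.81 for Osr1, 2.13 for Emx2, 0.67 for Nr0b1 and 0.45 for Wt1. The Wt1 value was lost without XY E11.5 replicate 1 (0.37, edgeR adjusted p = 0.0636) and with only the libraries compared (0.48, 0.0956). Between E12.5 and E13.5 it was -0.90 for Emx2. Between E13.5 and E15.5 it was 1.52 for Emx2, -1.44 for Lhx9, -2.83 for Tcf21 and -0.75 for Nr5a1, which was lost without XX E13.5 replicate 1 (-0.62), XX E15.5 replicate 3 (-0.57), XY E13.5 replicate 2 (-0.71) or XY E15.5 replicate 3 (-0.72). Emx2 thus appears at every step, with the sign turning each time.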

How the results depend on the processing

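The counts of called genes kept within 1.5 times of the value given under every alternative but these. The 3 genes called at the first XX step became 0 in edgeR when only the libraries compared were fitted (4 at an unadjusted p under 0.05; 3 adjusted calls in DESeq2, and 3 in limma over all libraries, where Six4 was lost and Lhx9 gained), and ranged from 1 to 4 over the fits leaving out 1 library. They were 1 without XX E11.5 replicate 3 or XX E12.5 replicate 1. The 1 gene with differing steps to E13.5 became 3 in DESeq2, 2 in limma on log2(TPM + 0.1) and 2 with only the libraries compared, and was 1 to 2 leaving out 1 library, 2 without XX E11.5 replicate 2 or 3 or XX E12.5 replicate 2 or 3.

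With the replicate number as a block, Osr1 at E11.5 was called (-1.18), as were Tcf21, XX minus XY at E15.5 (0.84, edgeR adjusted p = 0.0465) and Wt1, sex by stage (0.0328); the block changed no other call of the 9 genes. The labels do not say what same-numbered libraries share at any stage.

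Values near 0 that were not called turned sign; the cause was not tested. Wt1, XX minus XY at E12.5, became 0.0143 in DESeq2 and with its size factors, 0.0773 with 10 counts in every library, 0.0334 with both doubtful libraries (XX E13.5 replicate 1 and XY E11.5 replicate 3) out, 0.0341 with only the libraries compared, and 0.176 and 0.175 in limma on log2(TPM + 0.1) and log2(TPM + 1). Six4, XX minus XY at E13.5, became -0.0232 without the doubtful libraries, and -0.0101 and -0.0035 in those limma fits. Without the doubtful libraries the Nr5a1 XY step to E12.5 was -0.0166, the difference of Nr5a1 steps to E12.5 was 0.136, the Tcf21 XX step to E15.5 was -0.103 and the difference of Osr1 steps to E15.5 was -0.20. In limma the Nr5a1 difference was 0.0958 and 0.0948, and the Tcf21 step -0.0723 and -0.043. For Osr1 DESeq2 gave -0.0129 and the replicate block -0.0249. The step differences to E13.5 in limma were -0.0815 on log2(TPM + 1) for Lhx9, and -0.128 and -0.13 for Nr0b1. Limma on log2(TPM + 1) gave the same values with all genes.

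Leaving out 1 library, these ranged: Emx2, XX step to E12.5, -0.0473 to 0.12; Lhx9, XX step to E13.5, -0.0854 to 0.0352; Nr0b1, XX step to E12.5, -0.026 to 0.16. Nr5a1, XY step to E12.5, ranged from -0.0325 to 0.32, and its step differences from -0.20 to 0.11 at E12.5 and -0.21 to 0.0135 at E13.5. Osr1, step difference to E15.5, ranged from -0.38 to 0.48. Six4, XX minus XY, ranged from -0.88 to 0.19 at E11.5, -0.0313 to 0.14 at E13.5 and -0.69 to 0.0159 at E15.5. Tcf21, XX step to E15.5, ranged from -0.25 to 0.44, Wt1, XX minus XY at E12.5, from -0.0294 to 0.0723, and Wt1, XY step to E12.5, from -0.30 to 0.0067.

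Of the 3 genes most like each member, the ranking by Spearman rho kept at least 2 for 1 gene of 9 and the ranking by group means for 3. Depth limits Lhx2, Osr1 in XY after E11.5, and Tcf21 in XY at E12.5 and E13.5 (5 to 15 counts a library, against 63 to 79 at E15.5).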
